A study of Mus musculus with 2 samples.

Results

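The cells described here are 105 collagen-expressing cell barcodes of the newborn mouse heart that carried counts of Scx, Fmod, Prss35, Rspo3 or Car3, out of 11935 barcodes in all. They were selected on these measured counts. A barcode was a member when it had at least 500 detected genes and less than 0.5% of its counts from the haemoglobin genes Hba-a1, Hba-a2, Hbb-bs and Hbb-bt. Less than 0.3% of its counts came from the myosin light chain genes Myl2 and Myl7. It also had at least 10 counts of Col1a1 and Col3a1 together and 0 counts of the endothelial genes Pecam1 and Cdh5. Finally, it held at least 3 counts of the 5 selecting genes, from at least 2 of them. The members are called Scx/Fmod fibroblasts for short, after 2 of the 5 selecting genes, although 22 of them carried neither Scx nor Fmod. Technical replicate 1 held 56 of them, or 0.951% of its 5888 barcodes. Technical replicate 2 held 49, or 0.810% of its 6047 barcodes. Over both replicates the share was 0.880%, with an exact 95% binomial (Clopper-Pearson) interval of 0.720% to 1.06%. Among the 1238 barcodes that passed every limit before the 5-gene condition, the members made up 8.48% (interval 6.99% to 10.2%).

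All cells came from whole hearts at postnatal day 0 (P0) of mice with the background strain C57BL6+ICR, with no treatment or genotype compared. The minced tissue was digested with trypsin at 37 °C for 30 min, and the released cells were collected in 6 fractions at intervals of 5 min. Cells were captured with the 10x Genomics Chromium droplet system (3' chemistry version 2) as 2 technical replicates of 1 biological sample. The series text describes the data as a resource for picking candidate transcription factors. With 1 biological sample no test between groups was possible, so each value is given for both technical replicates, and every interval covers counting error only.

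Scx encodes scleraxis, a basic helix-loop-helix transcription factor of tendon and ligament progenitors that is also made in the developing heart valves and their chordae. Fmod encodes fibromodulin, a small proteoglycan that binds collagen fibrils, and Rspo3 encodes R-spondin 3, a secreted amplifier of Wnt signalling. Prss35 encodes a secreted serine protease-like protein, Car3 a cytosolic carbonic anhydrase, and Sfrp2, a marker that the selection did not use, a secreted frizzled-related modulator of Wnt signalling. Valve interstitial cells are the fibroblasts inside the leaflets, which lay down layers rich in collagen, proteoglycan and elastin and share several matrix and transcription factor genes with cartilage and tendon.

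The 250 bases before the annotated start of 3 genes are shown because Fmod helped to choose the members, while Col9a1 and Matn4, which it did not use, were far higher in them. They are printed 5' to 3' on the gene's strand from RefSeq on GRCm38.p6, the assembly that mm10 also names. Capitals mark CANNTG, the core letters that basic helix-loop-helix factors such as scleraxis bind, or ACAAAG and ACAATG, core letters of SOX factor sites, searched on both strands.
Fmod (chr1:134037004-134037253, plus strand): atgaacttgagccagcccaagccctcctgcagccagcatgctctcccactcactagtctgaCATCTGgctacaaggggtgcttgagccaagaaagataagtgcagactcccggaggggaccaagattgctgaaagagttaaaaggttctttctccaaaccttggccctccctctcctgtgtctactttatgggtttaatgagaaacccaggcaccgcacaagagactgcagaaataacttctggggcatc
Matn4 (chr2:164405161-164405410, minus strand): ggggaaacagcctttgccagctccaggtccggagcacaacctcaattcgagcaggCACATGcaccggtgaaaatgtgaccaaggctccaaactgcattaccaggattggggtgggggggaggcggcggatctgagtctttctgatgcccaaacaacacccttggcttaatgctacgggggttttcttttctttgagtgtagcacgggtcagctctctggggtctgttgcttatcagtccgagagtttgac
Col9a1 (chr1:24177360-24177609, plus strand): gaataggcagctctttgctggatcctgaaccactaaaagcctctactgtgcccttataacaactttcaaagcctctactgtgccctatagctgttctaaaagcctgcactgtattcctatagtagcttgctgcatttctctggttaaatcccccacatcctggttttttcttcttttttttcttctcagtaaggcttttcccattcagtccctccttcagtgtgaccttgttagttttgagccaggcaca
The Fmod and Matn4 windows each held 1 CANNTG match, and the Col9a1 window held neither motif. CANNTG occurred in 66.0% of all 27025 promoter windows of this length, in 53.0% of those of genes measured in the comparison below, and in 57 of 112 windows of genes higher in the members (50.9%). ACAAAG or ACAATG occurred in 25.5% of all windows, in 15.9% of those of measured genes and in 25 of the 112 (22.3%). A match is a description of letters and does not show that a factor binds there. Of 26 genes searched by name (the 5 selecting genes, Sfrp2 and the 20 genes of largest ratio below), 18 had a window.

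The 5 selecting genes were carried in many combinations, and no single gene was present in every member. Their values are a description of the selection and support nothing. Prss35 had counts in 78 members, Fmod in 73, Scx in 53, Car3 in 51 and Rspo3 in 39. Scx and Fmod were found together in 43 members, and 50 members carried 2 of the 5 genes, 33 carried 3, 15 carried 4 and 7 carried all 5. The most frequent combination was Prss35 with Car3, in 12 members, followed by Scx with Fmod and by Scx with Fmod and Prss35, each in 11. The median member held 8.0 counts of the 5 genes together and the highest held 59.

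Scx gave 46 counts in replicate 1 and 45 in replicate 2, which is 156 and 139 CPM, that is, counts per 1000000 counts of the summed group. No member had more than 6 counts of Scx, and the median carrier had 1. Scx lies on chromosome 15 from 76457452 to 76459458 (plus strand), inside the span of Bop1 on the minus strand (76452989 to 76477277). Whether the counting used strand is not given in the sources used here. Bop1 itself was at 22.7 CPM in the members and 20.8 CPM in the other collagen-positive barcodes. Fmod was at 539 and 468 CPM in the 2 replicates, Prss35 at 410 and 406, Rspo3 at 149 and 127, and Car3 at 501 and 725. Car3 had 0 counts in 54 members and up to 43 counts in 1.

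Near the limit of 3 counts, the members and the barcodes just outside were close in Sfrp2, and other genes ran in both directions on few counts. The 14 members with exactly 3 counts of the selecting genes had Sfrp2 at 1374 CPM, against 1192 CPM in the 10 barcodes with 2 counts from 2 of the genes. It was at 1177 CPM in the 70 barcodes with 3 or more counts of 1 gene and at 360 CPM in the 869 barcodes with 0 counts. Col9a1 was at 98.1 CPM in the first group, 55.0 in the second, 14.4 in the third and 2.19 in the last. Tcf21 ran the other way, at 98.1, 385, 213 and 572 CPM. Msx1 was at 42.0 CPM in the first group (3 counts) and 147 in the second (8 counts). Matn4 had 0 counts in the first group and 2 in the second, and Cyp26a1 had 0 in both. A further 57 barcodes met the 5-gene condition and failed a limit: 25 had Pecam1 or Cdh5 counts, 22 too many Myl2 and Myl7 counts, 22 too few collagen counts and 15 too much haemoglobin, with some failing more than 1.

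**Figure D1:**
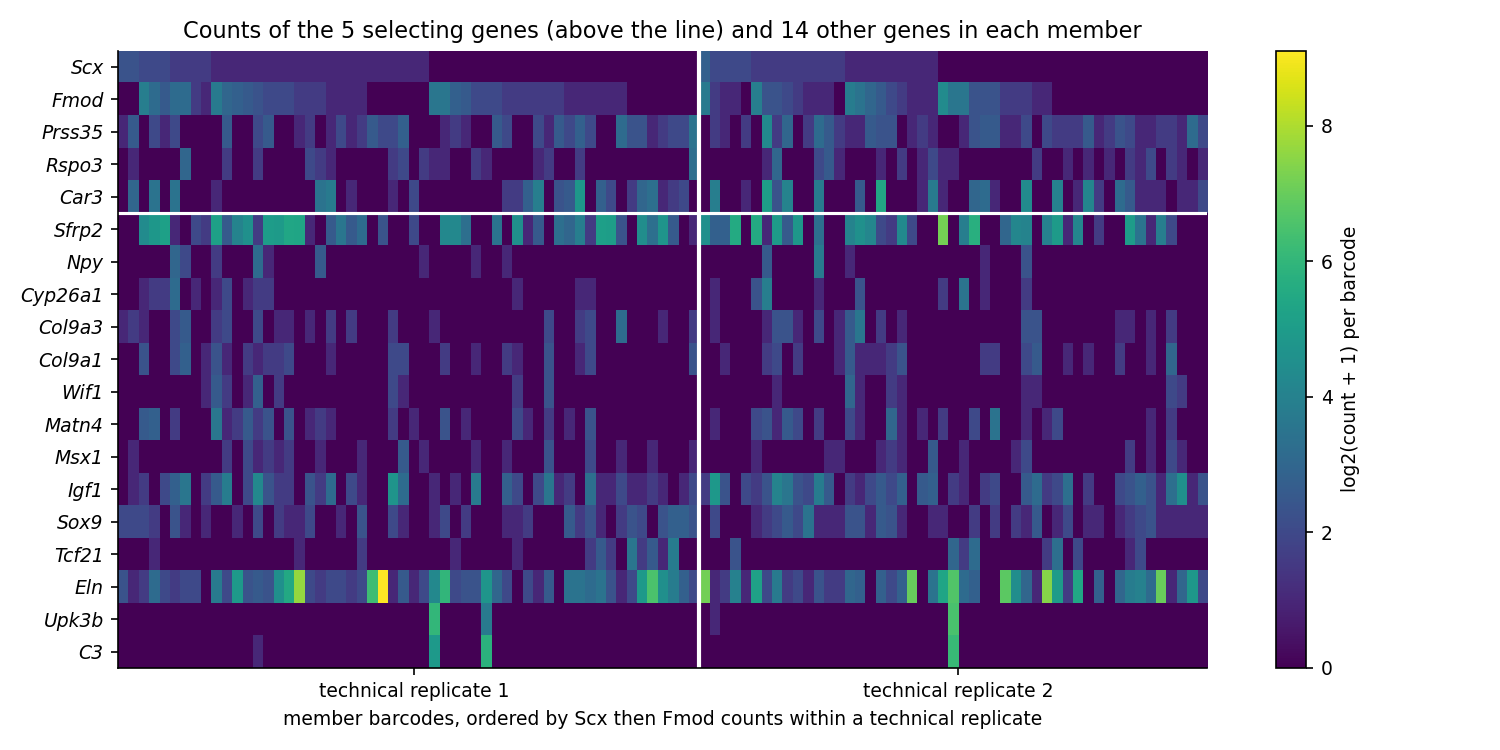
Counts per barcode, as log2(count + 1), of the 5 selecting genes (above the white horizontal line) and 14 other genes in each of the 105 members, with technical replicate 1 to the left of the vertical line and replicate 2 to the right, ordered by Scx and then Fmod. Sfrp2 and Eln reach high counts in some members and 0 in others, and Upk3b and C3 are high in only 3 members.

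The members were close in depth to the fibroblasts they are compared with. Their median was 5298 counts, 2260 genes and 3.20% mitochondrial counts per barcode, against 5547 counts, 2274 genes and 3.30% in the 1133 other collagen-positive barcodes, which passed the same limits and failed the 5-gene condition. Over the whole series the median barcode had 4831 counts in replicate 1 and 4521 in replicate 2, with 29.3% and 30.7% mitochondrial counts. The replicates held 34668956 and 33871582 counts in total, and the members 295199 and 322634. The replicates shared 53 barcode sequences, of which 1 was that of a member, and none was a member in both. Both records give the same internal identifier, while the barcodes of replicate 2 carry another, and each table was taken as filed under its own record.

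Of the members, 3 also carried many counts of epicardial genes. These 3, 2 from replicate 1 and 1 from replicate 2, held 165 of the 166 Upk3b counts (uroplakin 3b, a surface protein of epicardium) and 153 of the 154 C3 counts (complement component 3) found in all members. They had 31 to 101 counts of Upk3b, Msln, Krt19 and Krt8 together, while no other member had more than 1. They entered through Fmod (25 counts) and Rspo3 (3 counts), with 0 counts of Scx, Prss35, Car3 and Sfrp2. One of them was the deepest member, at 35303 counts, and the other 102 members had at most 13721. Among the other collagen-positive barcodes 41 were of this kind, with at least 5 counts of those 4 genes. Values without these barcodes are given below where a ratio against the other collagen-positive barcodes moved by more than 1.5 times or its call ended. The choice to leave them out was made after seeing the data.

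The label of valve or tendon-like cells was checked against lists of marker genes. Tendon-defining genes other than the selecting ones were nearly absent: Tnmd (tenomodulin) and Kera (keratocan) had 0 counts in the members, and Mkx, the mohawk homeobox factor of tendon, had 2. A count of 0 among 617833 allows a level of up to 3 counts. Comp had 2 counts and Six2 had 1. Thbs4, a thrombospondin of tendon, had 12 counts in 6 members, against 7 counts in 3 of the other collagen-positive barcodes. Cpxm2 had 17 counts against 4 there. Scaled to the totals of both groups, these are ratios of 18.6 (interval 6.77 to 55.9) and 46.2 (15.1 to 189), both below the measured level. Thbs4 was not particular to the members, with counts in 5.71% of them and 5.87% of cardiomyocyte barcodes. Because the defining genes named first were at or near 0, the name tendon-like is not used here.

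A gene was measured in a comparison when the mean of its CPM in both groups was at least 20 in each replicate, and it passed the size rule when the CPM ratio was at least 2, or at most 0.5, in both replicates. This rule of size stands in for a test. A gene below 20 CPM in 1 group could be measured only through a higher level in the other. Counts of higher or lower genes in a list are partly set by this limit and are a description. Genes used to choose the members were left out. Against the other collagen-positive barcodes 5937 genes were measured, of which 157 (2.64%) were higher in the members and 136 (2.29%) were lower. The median ratio over all measured genes was 1.02. Against the 673 interstitial fibroblasts (other collagen-positive barcodes with at least 2 counts of Tcf21 and Dpt together and 0 counts of the mural genes Myh11, Rgs5 and Kcnj8), 207 of 5848 genes (3.54%) were higher and 153 (2.62%) were lower. The 2 comparisons share the member barcodes and most of the reference barcodes, so the second is no separate evidence. Among 5784 genes measured in both, 136 were higher and 115 lower in both. Without the epicardial-gene barcodes the counts were 169 higher and 158 lower in the first comparison and 193 and 170 in the second.

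The highest ratio among measured genes was that of Npy, the gene of neuropeptide Y. It had 29 counts in replicate 1 and 23 in replicate 2, in 14 members, and 1 count in 1 of the other collagen-positive barcodes. In CPM it was 98.2 and 71.3 in the members, a ratio of 566 with a counting interval of 97.1 to 22762. All barcodes of the series together held 97 Npy counts, of which the members held 52. Cyp26a1, which encodes a retinoic acid-degrading cytochrome P450, was at 88.1 and 121 CPM in 22 members and at 0.837 and 0.319 CPM in the others (ratio 177, interval 65.8 to 668). All 22 Cyp26a1 carriers and 13 of the 14 Npy carriers also carried Fmod, and 8 members carried both Npy and Cyp26a1.

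Genes of cartilage-type matrix were among the largest differences. Col9a3, a chain of the fibril-associated type IX collagen (chromosome 2, 180597790 to 180622189), was at 166 and 146 CPM in the members against 1.67 and 3.83 CPM in the others, a ratio of 58.0 (interval 34.8 to 102). Its partner chain Col9a1 (chromosome 1, 24177610 to 24252684) was at 183 and 146 CPM against 4.74 and 6.06, a ratio of 30.5 (interval 20.7 to 46.0). Both chains were found in 27 members, and 53 carried at least 1 of them. Matn4, encoding the matrix adaptor matrilin 4, was at 220.2 and 170.5 CPM against 19.5 and 15.3 (ratio 11.1, interval 8.51 to 14.4). The SOX factors Sox5 and Sox6, which act with SOX9 in cartilage, had ratios of 4.77 and 2.72, the second rising to 4.99 without the epicardial-gene barcodes. Of 16 genes on the cartilage list 6 were measured, and these 5 were higher. Over both replicates each of the 5 was below 20 CPM in the others. They were measured only through their level in the members, so 5 of 6 is no support. The sixth, Col9a2, the third type IX chain, was at 27.1 and 24.8 CPM against 27.6 and 42.4, on neither side of the rule.

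The genes that define cartilage itself were scarce. Col2a1, the main collagen of cartilage, had 4 counts in the members and 2 in the others, and Acan, the aggrecan gene, had 5 counts against 158. Matn1, Matn3, Cnmd and Snorc had 0 counts in the members. Prg4, which encodes the lubricant lubricin of joint surfaces, had 29 counts in the members and 2 in the others, and Ucma had 10 counts against 4. Neither gene reached the level needed to be measured in the comparison.

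Of the valve interstitial list, 17 of 22 genes were measured, 7 were higher and 0 were lower, with a median ratio of 2.00. Wif1, a secreted Wnt inhibitor (chromosome 10, 121033960 to 121100650), was at 91.5 and 58.9 CPM in the members against 1.40 and 3.19 CPM, a ratio of 33.4 (interval 18.3 to 64.3). Msx1, a homeobox factor of endocardial cushion mesenchyme, was at 108 and 74.4 CPM against 8.37 and 8.61 (ratio 10.7). Ltbp2, a microfibril-associated protein, had a ratio of 4.94, the hyaluronan receptor gene Cd44 4.23, the homeobox factor gene Meox1 3.52, Cthrc1 2.99 and the protease gene Adamts19 2.65. The last was 1.33, short of the rule, when barcodes with counts of other cell types were left out. Hapln1, which links hyaluronan to proteoglycans, had 34 counts against 21 in the others (ratio 17.6). It was below the measured level there and was higher against interstitial fibroblasts, at a ratio of 16.6.

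Several genes usually named for valve cells did not separate the members. Sox9 was at 298 and 260 CPM in the members against 242 and 205 CPM in the others, a ratio of 1.24. Postn, the periostin gene, was at 2324 and 2210 CPM against 2410 and 2505, a ratio of 0.923. Tbx20, a T-box factor, was at 2063 and 1767 CPM against 915 and 996, and its ratio was 2.25 in replicate 1 and 1.77 in replicate 2, short of the rule. Vcan, the versican gene, was similar, with ratios of 2.03 and 1.70. Twist1 (ratio 2.14 over both replicates), Twist2 (0.619), Prrx1 (1.07), Gata6 (1.51), Lum (0.892) and Snai2 (1.06) were also on neither side. Has2, Penk, Edil3 and Msx2 were too low to be measured, with 23, 5, 6 and 1 counts in the members.

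**Figure D2:**
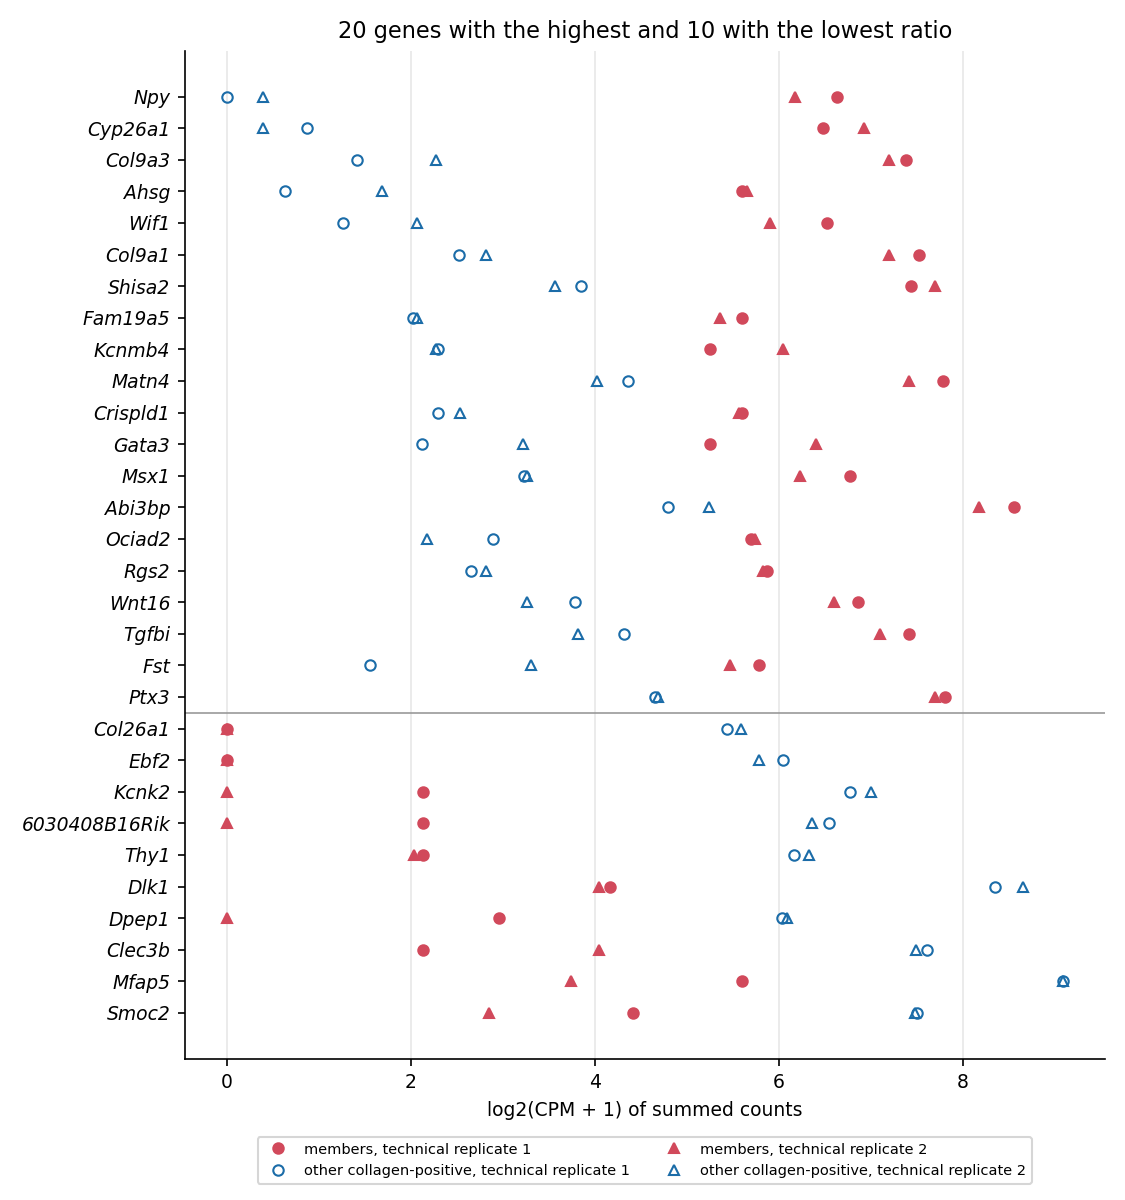
Level as log2(CPM + 1) of the 20 genes with the highest and the 10 with the lowest ratio of members (red, filled) to other collagen-positive barcodes (blue, open), with circles for technical replicate 1 and triangles for replicate 2. In each of the 30 genes both member values lie on the same side of both reference values. This is largely set by the choice of genes past the size rule in both replicates.

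The other genes among the 20 of largest ratio were genes of secreted and matrix proteins, membrane proteins and regulators. Shisa2, which encodes an endoplasmic reticulum protein that restrains Wnt and FGF receptors, was at 173 and 208 CPM in 48 members against 13.4 and 10.8 CPM (ratio 15.7). Ahsg, the fetuin-A gene, was at 47.4 and 49.6 CPM against 0.558 and 2.23 (ratio 36.3). Abi3bp, a matrix protein gene, was at 376 and 288 CPM against 26.8 and 37.0 (ratio 10.5). Tgfbi, a matrix protein induced by TGF-beta, was at 169 and 136 CPM against 19.0 and 13.1 (ratio 9.38), and Ptx3, a pentraxin, at 224 and 208 against 24.3 and 24.9 (ratio 8.77). Wnt16, a Wnt ligand, was at 115 and 96.1 CPM against 12.8 and 8.61 (ratio 9.68), and Fst, encoding the activin-binding protein follistatin, at 54.2 and 43.4 against 1.95 and 8.93 (ratio 9.32). Fam19a5 was at 47.4 and 40.3 CPM against 3.07 and 3.19. The remaining 5 were Kcnmb4 (13.4), Crispld1 (10.9), Gata3 (10.9), Ociad2 (10.2) and Rgs2 (10.0), given as ratios. Of the 20, 18 were also higher against interstitial fibroblasts, and Kcnmb4 and Gata3 were below the measured level there.

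Genes of the Wnt pathway were the list with the most members higher. Of 35 genes 12 were measured, 8 were higher and 0 lower, and the median ratio was 3.56. Of all measured genes 2.64% were higher and 2.29% lower. Over both replicates Wif1, Wnt16, Nkd2 and Lgr4 were below 20 CPM in the others. These 4 genes were measured only through the members, so the count and median of this list are a description and no support. Sfrp2 (chromosome 3, 83766321 to 83774316) was at 2019 and 2046 CPM in the members against 553 and 539 CPM in the others, a ratio of 3.72 (interval 3.48 to 3.97). It had 0 counts in 31 members, a median of 5 counts in each replicate, and up to 146 counts in 1 member, where the next had 53. Dkk3, a secreted dickkopf family protein, was at 461 and 462 CPM against 122 and 108 (ratio 3.99). Wnt5a, a ligand of non-canonical Wnt signalling, had a ratio of 3.40, and Nkd1 and Nkd2, cytoplasmic inhibitors induced by Wnt signalling, had ratios of 4.08 and 6.63. Lgr4, a receptor for R-spondins, had a ratio of 2.39 and was on neither side against interstitial fibroblasts (2.05 over both replicates). The higher genes of the list encoded ligands, secreted inhibitors, intracellular inhibitors and a receptor, while Sfrp1 (1.54) and Frzb (1.08) were not higher. Whether single members carried the higher genes together was not tested.

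Growth factor genes differed less evenly. Igf1, encoding insulin-like growth factor 1, was at 630 and 673 CPM in the members against 136 and 139 CPM, a ratio of 4.74 (interval 4.20 to 5.33), and 78 members carried it. Of 16 measured genes of TGF-beta and BMP signalling 4 were higher: Fst, the BMP target Id1 (2.48, but 1.93 without barcodes with counts of other cell types), the inhibitory SMAD gene Smad7 (2.32) and the ligand gene Tgfb3 (2.16). Nbl1, a secreted BMP antagonist, was lower (0.390). Fst, at 5.21 CPM in the others, was measured only through the members. Of all measured genes 2.64% were higher and 2.29% lower. Of 22 measured genes of mechanosensing and adhesion 4 were higher, namely Thbs1 (thrombospondin 1, 5.41), Ccn5 (3.16), Ccn2 (2.67) and the cadherin gene Cdh2 (2.09), and Ccn3 was lower (0.130). Cd9, a tetraspanin gene named here after its values were seen, was at 674 and 787 CPM against 123 and 147 CPM (ratio 5.47) and had counts in 90 of the 105 members.

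**Figure D3:**
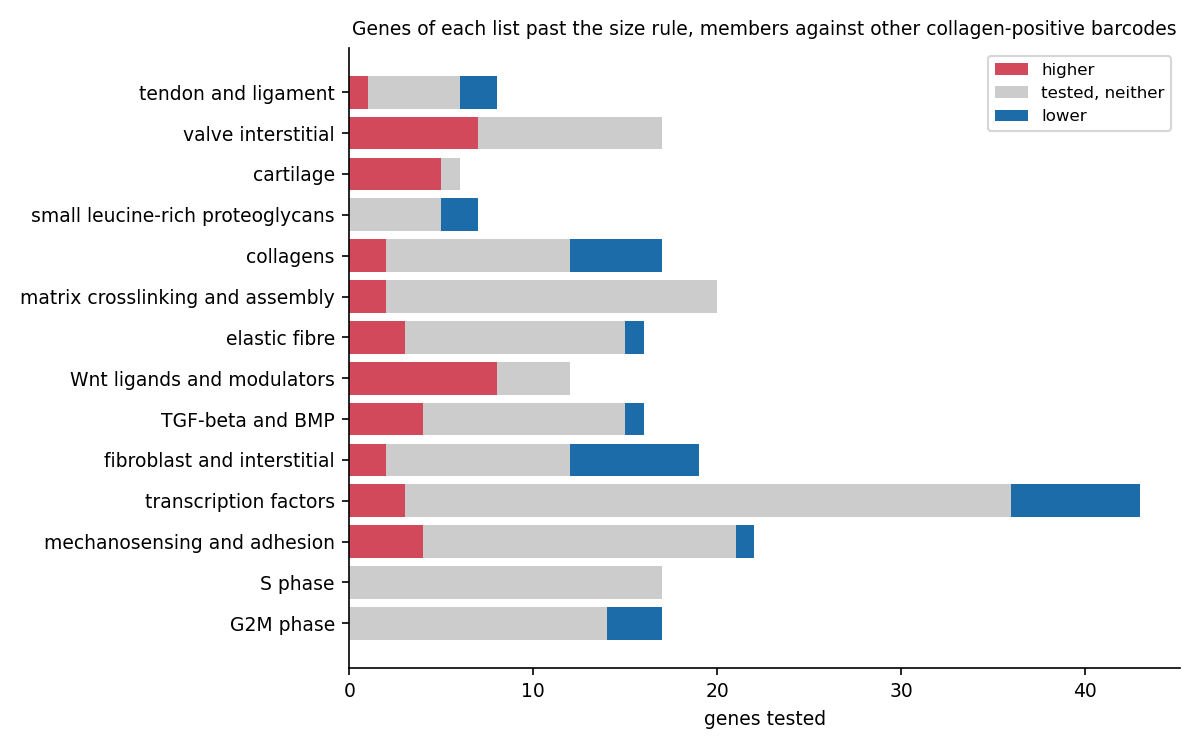
Number of measured genes of 14 gene lists that were higher (red), lower (blue) or neither (grey) in the members against the other collagen-positive barcodes by the size rule. The Wnt list has 8 of 12 genes higher, the valve interstitial list 7 of 17, the cartilage list 5 of 6, and the fibroblast list 7 of 19 lower. Of all measured genes 2.64% were higher and 2.29% lower. The list counts are partly set by the limit for measuring a gene.

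Of 17 measured collagens 2 were higher, against 2.64% of all measured genes, and 5 were lower, against 2.29%. The higher ones were Col12a1 (2.64, but 1.90 with Fmod left out of the rule) and Col18a1 (2.45). Col26a1 had 0 counts in the members and 300 in the others, at 42.4 and 47.2 CPM, which is at least 9.19-fold lower when the floor of 3 counts is taken over the members. Col15a1 (0.204) and the basement membrane chains Col4a1 (0.307) and Col4a2 (0.328) were lower, as was Col14a1 (0.398), a fibril-associated collagen that is also on the tendon list. Col1a2 had a ratio of 1.10 and Col5a2 1.96, while Col1a1 and Col3a1 were part of the selection. Of 7 measured small leucine-rich proteoglycans 0 were higher, a count too small to set against the 2.64% of all measured genes. Ogn (osteoglycin, 0.285) and Aspn (asporin, 0.429) were lower, the second at 0.603 when barcodes with counts of other cell types were left out. Dcn (1.37), Bgn (1.84), Prelp (2.14 over both replicates), Lum (0.892) and Ecm2 (1.09) were on neither side, and Omd, Epyc, Optc, Podnl1 and Nyx had 0 counts in the members. Podn had 11 counts, Chadl 8 and Chad 2.

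The tendon list had 8 of 22 genes measured, with 1 higher and 2 lower. For this and the next lists, 2.64% of all measured genes were higher and 2.29% lower. Fibin was higher, at 335 and 310 CPM against 124 and 135 (ratio 2.50), and Htra3, a serine protease gene, was lower at 0.176 together with Col14a1. Tnc, the tenascin C gene, was at 61.0 and 37.2 CPM against 118 and 129 (ratio 0.394, above 0.5 in replicate 1). Egr1 (1.02) and Thbs2 (1.16) were on neither side, and Egr2, Cilp, Cilp2 and Chodl were below the measured level with 15, 1, 3 and 2 counts. Of 16 measured elastic fibre genes, Ltbp2, Fbn2 (2.51) and Ltbp3 (2.41) were higher and Mfap5 was lower. Eln, the elastin gene, was at 4573 and 3568 CPM against 5516 and 4798 CPM (ratio 0.781). Against interstitial fibroblasts, at 1318 and 1480.2 CPM, it was higher (2.91). Of 20 measured genes of collagen crosslinking and assembly, 2 were higher, Tgfbi and the lysyl hydroxylase gene Plod1 (2.35), and 0 were lower.

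Of 19 measured genes on the list of interstitial fibroblasts 7 were lower in the members, 2 higher and 10 on neither side, with a median ratio of 0.651. Of all measured genes 2.29% were lower and 2.64% higher. Mfap5, a microfibril protein gene, had 18 counts in the members, at 47.4 and 12.4 CPM, against 542 and 544 CPM in the others, a ratio of 0.0536 (interval 0.0318 to 0.0849). Clec3b (0.0518), Thy1 (0.0432) and Smoc2 (0.0723) had 6, 2 and 8 counts in all members. Without the epicardial-gene barcodes the first 2 ratios were 0.0272 and 0.0227. Clec3b, Thy1 and Smoc2, below 20 CPM in the members, were measured only through the others. Lsp1 (0.370) and Col15a1 were also lower. Tcf21, a basic helix-loop-helix factor of epicardium-derived fibroblasts, was at 159 and 121 CPM against 498 and 540 CPM (ratio 0.269, interval 0.215 to 0.333) and had counts in 22 members. Dpt, dermatopontin, was at 603 and 747 CPM against 1029.8 and 1046 (ratio 0.654) and had counts in 84 members. Besides Igf1, Pi16 was higher (2.37).

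The 10 genes of lowest ratio were all lower against interstitial fibroblasts as well, and 8 of them had their highest level of the 10 compared classes in interstitial fibroblasts. They were picked against barcodes that include interstitial fibroblasts, so both counts are partly set by the choice. Ebf2, an early B-cell factor family transcription factor, had 0 counts in the members and 403 in the others, at least 12.4-fold lower against the same floor. Kcnk2, a two-pore potassium channel gene, had 1 count against 787, a ratio of 0.0138 (interval 0.000349 to 0.0772), and 6030408B16Rik had 1 count against 586. Dlk1, a delta-like membrane protein of immature mesenchyme, was at 16.9 and 15.5 CPM against 326 and 404 CPM (ratio 0.0447), and Dpep1, a dipeptidase gene, had 2 counts against 443. Of 43 measured transcription factors 3 were higher, Msx1, Meox1 and Prrx2 (2.26, but 1.88 without the epicardial-gene barcodes). Of all measured genes 2.64% were higher and 2.29% lower. Msx1 and Prrx2, at 8.48 and 15.0 CPM in the others, were measured only through the members. Ebf2, at 0 counts in the members, was measured only through the others. The 7 that were lower were Ebf2, Hic1 (0.239), Osr1 (0.269), Tcf21, Ebf1 (0.298), Nr2f2 (0.326) and Klf2 (0.376, or 0.248 without the epicardial-gene barcodes).

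**Figure D4:**
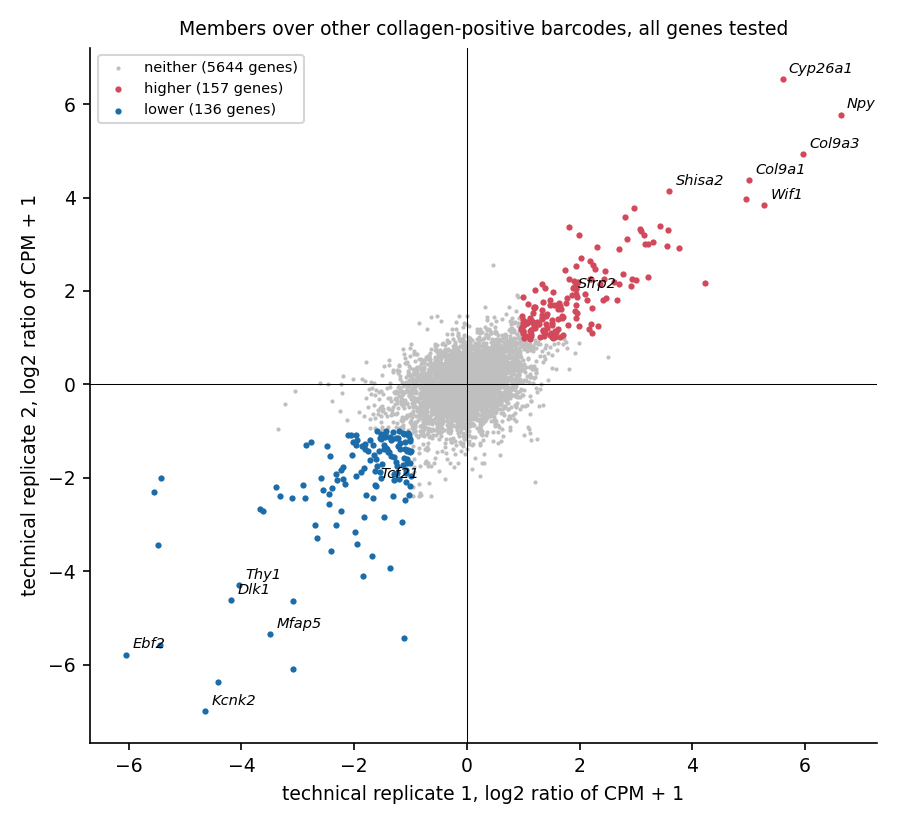
Log2 ratio of CPM + 1, members over other collagen-positive barcodes, in technical replicate 1 (x axis) and replicate 2 (y axis) for all 5937 measured genes, with 157 higher genes in red, 136 lower genes in blue and the rest in grey. Cyp26a1, Npy and Col9a3 lie at the upper right and Ebf2 and Kcnk2 at the lower left, while most genes lie near 0 on both axes.

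Summed markers of other cell types were close to the reference for some lists and apart from it for others. Of the 15 cardiomyocyte genes, the summed level was 2689.7 and 3831 CPM in the members and 2721 and 2583 CPM in the others. Myl2 and Myl7 were limited in both groups by selection. Of 11 measured, 0 were on either side, too few to set against 2.64% higher and 2.29% lower of all measured genes. The 12 endothelial genes summed to 271 and 372 CPM against 270.4 and 350 CPM, with Pecam1 and Cdh5 at 0 by selection. The 8 endocardial genes summed to 257 and 174 CPM against 77.8 and 62.5, and both measured genes were higher, Tmem100 (4.19) and Npr3 (2.07 and 3.89 in the replicates, but 1.49 over both without the epicardial-gene barcodes), while Plvap had 0 counts. Over both replicates Tmem100 and Npr3 were at 12.4 and 12.9 CPM in the others. They were measured only through the members, so that both were higher is no support. The part of endocardial RNA in the endocardial values was not tested. The 10 smooth muscle genes summed to 6196 and 4801 CPM against 7360 and 6705. That list contains Eln, which made up most of each sum. In the members over both replicates it was 4048 of 5468 CPM. The 10 pericyte genes summed to 366 and 242 CPM against 790.2 and 871, with Ndufa4l2 (0.167) and Rgs5 (0.240) lower. In interstitial fibroblasts, chosen to lack mural counts, the smooth muscle genes summed to 1849 and 2108 CPM, again mostly Eln. The part of mural RNA in that comparison was not tested. Macrophage genes summed to 37.3 and 37.2 CPM against 121 and 61.2, with 5 of 12 at 0. Glia and neural crest genes summed to 40.7 and 34.1 CPM against 20.6 and 22.3, with Sox10, Foxd3 and Gfra3 among those at 0. Erythroid genes summed to 769 and 1249 CPM against 709 and 1160.3.

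The skeletal muscle and brown fat list summed to 678 and 952 CPM against 184 and 203 CPM. That list contains Car3, a selecting gene, and Myod1, Myf5, Myog, Pax7, Ucp1, Adipoq and Plin1 were at 0 counts in the members. The 11 epicardial genes summed to 755 and 704 CPM against 593 and 677. Upk3b alone was at 261 and 276 CPM against 91.8 and 132 CPM, a ratio of 2.43 that fell to 0.797 without the epicardial-gene barcodes. Aldh1a2, a retinoic acid-synthesising enzyme also made by epicardium, was lower at 0.175, or 0.0727 without those barcodes.

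Among 10 classes of barcodes, 17 of the 20 genes of largest ratio had their highest level in the members. The 20 genes were picked for their ratio over barcodes that include the interstitial class. This rank is therefore partly set by the choice and is no separate support. The 10 classes were the members, interstitial fibroblasts and 8 classes set by limits on marker counts: erythroid, cardiomyocyte, endocardial, vascular endothelial, smooth muscle, pericyte, epicardial and macrophage barcodes. These levels describe barcodes and were not tested. Most of the 11935 barcodes were in no class, and their counts are not part of these values. Of 97 Npy counts in the series, 44 lay outside the collagen-positive barcodes. Of these, 16 were in the 57 barcodes that met the 5-gene condition and failed a limit. Npy was at 84.2 CPM in the members and at most 0.257 CPM in the next class, interstitial fibroblasts, on 1 count. Col9a3 was at 155 CPM against 3.34 in the next class, Col9a1 at 163 against 4.89 and Matn4 at 194 against 20.1, in each case interstitial fibroblasts. Cyp26a1 was at 105 CPM against 2.84 in epicardial barcodes. The exceptions were Ahsg and Tgfbi, highest in endocardial barcodes at 118 and 199 CPM, and Rgs2, highest in macrophage barcodes at 177 CPM.

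Sfrp2 stood at 2033 CPM in the members and 553 CPM in interstitial fibroblasts, the next class, a ratio of 3.68. Tbx20 was highest in the members at 1908 CPM, followed by interstitial fibroblasts at 1066, cardiomyocytes at 978 and pericytes at 631. Sox9 was at 278 CPM in the members and 268 in interstitial fibroblasts, neighbours that lie within the spread of the 2 replicates. Fmod was at 502 CPM in the members and 392 CPM in epicardial barcodes, the first set by the selection. Gata6 was at 265 CPM, below the 321 of epicardial barcodes, Gata4 at 92.3 below the 101 of endocardial barcodes, Hand2 at 80.9 and Tbx18 at 134. Wt1 was at 46.9 CPM, all of it in the epicardial-gene barcodes. Mef2c (126 CPM), Tbx5 (17.8) and Nkx2-5 (6.47) were far below their highest class. Postn was highest in interstitial fibroblasts at 2749 CPM, with 2264 in the members.

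**Figure D5:**
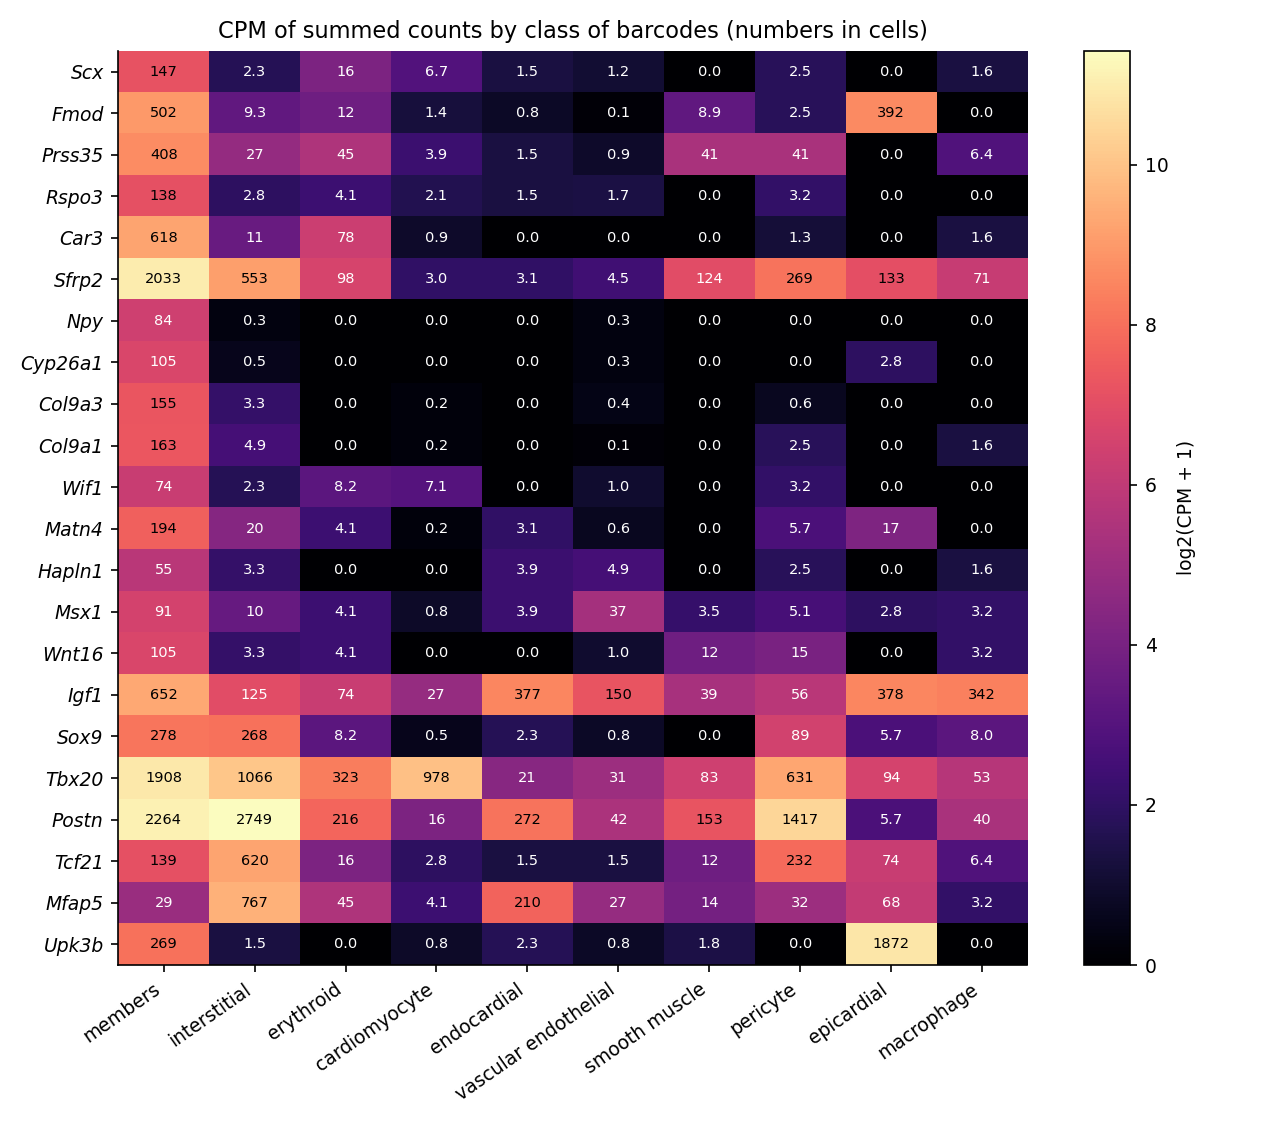
CPM of summed counts (numbers in cells, colour as log2(CPM + 1)) of the 5 selecting genes and other named genes in the members and 9 other classes of barcodes. Sfrp2 is at 2033 CPM in the members, Fmod is also high in epicardial barcodes at 392 CPM, and Sox9 is at 278 CPM in the members and 268 in interstitial fibroblasts.

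The share of barcodes with a count is given after thinning. After thinning each barcode to 2000 counts, which left out 2 members, Sfrp2 was found in 61.2% of members (63 of 103, interval 51.1% to 70.6%) and 32.5% of the other collagen-positive barcodes (29.7% to 35.3%). Before thinning the shares were 70.5% and 45.7%. Among cardiomyocyte barcodes, which should lack it, the thinned share was 0.768% with a median depth of 5783 counts before thinning. Col9a1 was found in 21.4% of thinned members (in 42 of the 105 before) and 1.26% of the others. Wif1 was found in 11.7% of thinned members (18.1% before), 0.270% of the others and 1.22% of cardiomyocyte barcodes. Npy was found in 8.74% (13.3% before) and 0.0899%. Neither Col9a1 nor Npy was found in any of the 1563 thinned cardiomyocyte barcodes (upper bound 0.236%). Tcf21 was found in 14.6% of thinned members and 52.1% of the others. For some genes the share and the summed level ran in different directions. Eln was found in 77.7% of thinned members and 63.4% of the others although its summed level was lower, and Upk3b in 2.91% and 3.60% although its summed level was higher.

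Members that carried Scx differed from those that did not. The split is by a selecting gene, so members without it had to hold others of the 5, and the values are a description. In the 53 members with Scx, Tcf21 was at 27.7 CPM (26.4 and 29.0 in the replicates), and in the 52 without it at 237 CPM (299 and 189), a ratio of 0.116 (interval 0.0486 to 0.241). Only 4 members carried both. Npy was at 156 CPM with Scx and 21.3 CPM without (ratio 7.30, interval 3.27 to 19.2). Cyp26a1, Wif1 and Shisa2 were between 2.88 and 2.97 times as high with Scx, Matn4 2.36 times and Col9a3 2.17 times. Sfrp2 was close, at 2181 and 1902 CPM, and so was Sox9, at 301 and 259. The median depth was 5096 counts with Scx and 5585.5 without.

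Splits by the other genes set different genes apart. Sfrp2 was at 2580.2 CPM in the 73 members with Fmod and 889.8 CPM in the 32 without. Abi3bp was 7.03 times and Matn4 5.91 times as high with Fmod, and Cyp26a1 had 65 counts with Fmod and 0 without. Prss35 split the other way for Sfrp2, at a ratio of 0.427 with Prss35 over without (0.292 without the epicardial-gene barcodes), and Lum was 3.04 times as high with it (2.26 times). In the 70 members with Sox9 counts, Col9a3 was 3.36 times and Lum 3.31 times as high as in the 35 without, while Eln was at a ratio of 0.304. Eln was also at a ratio of 0.237 with Rspo3 over without. Its counts were uneven: 5 members held 47.9% of them, 1 held 551, and 9 had 0.

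Counting 7 genes that were not used to choose the members (Npy, Cyp26a1, Col9a3, Col9a1, Wif1, Matn4 and Msx1), 38 members carried at least 3 of them, 14 at least 5 and 29 none. Counts of these genes were thus unevenly spread over the members. The median carrier held from 1 count (Msx1) to 2.5 counts (Npy), so a 0 need not mean absence. Whether the 29 without any differ in kind or in depth was not tested.

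The share of barcodes with cell cycle genes was lower in the members, with intervals that overlap those of the reference. With at least 3 counts of a list after thinning to 2000 counts, S phase genes marked 12 of 103 members (11.7%, interval 6.17% to 19.5%) and 19.7% of the other collagen-positive barcodes (17.4% to 22.2%). In the replicates these were 7 of 54 and 5 of 49 members. Before thinning the shares were 34.3% and 44.5%. G2M genes marked 13.6% of members (7.63% to 21.8%) and 21.6% of the others (19.2% to 24.1%), and cardiomyocyte barcodes were at 4.99% for S phase and 5.76% for G2M. None of 17 measured S phase genes was on either side, too few to set against 2.64% higher and 2.29% lower of all measured genes. Of 17 measured G2M genes 3 were lower, Cdc20 (0.272), Tpx2 (0.342) and Ccnb1 (0.405), against 2.29% of all measured genes. No cycling state of single cells was read from these shares.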

How the data were processed

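Single-cell RNA-seq of P0 mouse whole heart was used as 2 tables, 1 for each technical replicate of 1 biological sample. Per the submitters' processing notes the authors used Cell Ranger 2.1.0 and mm10. The deposited values are whole-number counts per gene and barcode, not normalized. Whether a count is a molecule or a read is not given in the sources used here. Gene identifiers were matched to symbols in GENCODE M21 (27645 of 27999). Counts were summed over barcodes of a group and replicate and scaled to 1000000 (CPM). Ratios have exact conditional binomial intervals and shares Clopper-Pearson intervals, at 95%. No doublet caller was run. The deepest barcodes were left out in an alternative. The size rule was tested on simulated data. Named genes were the 20 of largest and 10 of smallest ratio past the rule, up to 5 at each end of every list, every gene of 4 lists and 10 cardiac factors. The members and lists were chosen with earlier results of these data known. Software was matplotlib 3.10.9, pandas 2.3.3, scipy 1.17.1 and numpy 2.4.6 under Python 3.11.15. Values of some listed genes are not reported here.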

Additional observations from a re-analysis of the deposited data

How the results depend on the processing

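Single-gene ratios were followed for 54 genes, among them the selecting genes and the genes named for the largest and smallest ratios. The ratios of the selecting genes are set by the selection, and the others named were picked for extreme ratios. The count of ratios that did not reverse is therefore partly set by the choice of genes and is a description. Over 21 alternatives, 966 of 1132 single-gene ratios stayed within the counting interval of the value given, 161 moved outside it and 5 reversed. All 5 were for Upk3b, members over other collagen-positive barcodes, where the ratio was 0.0247 with at least 3 of the 5 genes, 0.0150 without Rspo3 in the rule, 0.0181 without Fmod, 0.518 without the 10% deepest barcodes and 0.797 without the epicardial-gene barcodes. The number of members was 55 with at least 3 genes, 69 with at least 30 collagen counts and 58 without barcodes holding counts of other cell types. Genes lower than in the other collagen-positive barcodes numbered 219 with at least 3 genes. With a mean CPM of 5 the counts of genes were 357 higher and 344 lower against the others, and 507 and 345 against interstitial fibroblasts, and with 50 they were 74, 86, 96 and 97. Leaving out 1 technical replicate, so that 1 ratio decides, gave 49 to 56 members, 345 to 346 genes higher and 295 to 335 lower against the others, and 425 to 464 and 311 to 386 against interstitial fibroblasts. Tcf21 with Scx over without was 0.0156 with at least 5 counts of the 5 genes, and Sfrp2 over the next class was 4.01 without the epicardial-gene barcodes. Beyond the smaller number of samples or genes these settings leave, the cause was not tested. No paired analysis was possible because both technical replicates come from 1 sample with no second condition. With 1 biological sample, spread between animals is unknown, and a gene at a few counts in 105 barcodes has wide counting error.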
